A study of Mus musculus with 24 samples.

Results

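The difference in the lipopolysaccharide (LPS) response between offspring exposed to maternal immune activation (MIA) and control offspring was measured in CD11b-sorted brain cells of adult mice. It is the interaction (MIA LPS minus MIA saline) minus (control LPS minus control saline), averaged over frontal cortex and striatum, and it was estimated for every gene tested. A negative log2 value means that the gene rose less, or fell more, in MIA than in control offspring. The members were the 23 libraries, of 24 in all, whose title does not mark them as excluded. They fall into 8 groups: MIA cortex LPS (3 libraries), MIA cortex saline (3), control cortex LPS (3), control cortex saline (3), MIA striatum LPS (2), MIA striatum saline (3), control striatum LPS (3) and control striatum saline (3). All were from male mice of 8 to 10 weeks. LPS was injected intraperitoneally at 4500 endotoxin units per gram of body weight, and cells were collected 18 h after LPS or saline. The labels give neither the agent or day of the maternal stimulus, nor the strain, nor which offspring shared a litter, so an effect of MIA and an effect of litter cannot be told apart. They also do not say that libraries came from separate animals, so p-values measure the spread between these libraries.

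LPS is a cell-wall molecule of Gram-negative bacteria that is bound by CD14 and by the TLR4 and MD-2 receptor pair. One arm of its signal runs through MyD88 to NF-kB and inflammatory genes such as Il1b and Tnf. The other runs through TRIF to interferon beta, which acts back on the cell through JAK kinases and the transcription factors STAT2 and IRF9 and switches on antiviral genes that carry an interferon-stimulated response element. Microglia, the resident macrophages of the brain, lower their surveillance genes such as P2ry12 after LPS and raise chemokines, antigen presentation genes and interferon-induced genes.

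The labelled cell type was checked against its markers. All 29 genes of the homeostatic microglia list were measured, with Csf1r between 6560 and 15940 CPM (counts scaled to a common library total, with TMM factors) and P2ry12 between 834 and 5757 CPM over the 23 libraries. Library totals ran from 19453295 to 29480499 counts, 17139 of 55487 genes passed the filter on low counts, and mitochondrial genes took 1.93% to 4.37% of counts. Several libraries stood apart from their groups in marker scores. MIA cortex LPS replicate 3 had a neuron marker score (mean log2 CPM of the list) of 4.26, against 0.85 and 0.35 in replicates 1 and 2 of its group, and an interferon response score of 5.99, against 4.25 and 4.20. Where a named gene's call changed without it, that is stated with the results, for some genes as a set. Because this library was set apart partly by its interferon score, leaving it out was bound to lower the interferon interactions further. Values without it are therefore not separate evidence for those genes. MIA cortex saline replicate 1 had a neutrophil marker score of 4.10, against 2.85 and 2.78 in the other 2 libraries of its group. The astrocyte marker score was 5.58 in control cortex LPS replicate 1, against 4.10 and 3.68 in the rest of its group, and 5.73 in control striatum LPS replicate 1, against 3.18 and 3.24. In MIA cortex LPS replicate 3 it was also 5.58, against 3.96 and 4.30 in the rest of its group. In bulk samples such as these, fewer cells of a type and less RNA per cell cannot be told apart.

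Sequences around the starts of 6 genes are shown because they frame the results. The first 3 are the genes called for the interaction, and the other 3 are interferon-induced genes whose values are given further on. Each is the RefSeq promoter (build GRCm38.p6) from 250 bases before to 50 bases after the start of the gene, written 5′ to 3′ on the strand of the gene, with matches to the response element core GAAANNGAAA, on either strand, in capitals.
Ccl12 (chr11:82101595-82101894, plus strand): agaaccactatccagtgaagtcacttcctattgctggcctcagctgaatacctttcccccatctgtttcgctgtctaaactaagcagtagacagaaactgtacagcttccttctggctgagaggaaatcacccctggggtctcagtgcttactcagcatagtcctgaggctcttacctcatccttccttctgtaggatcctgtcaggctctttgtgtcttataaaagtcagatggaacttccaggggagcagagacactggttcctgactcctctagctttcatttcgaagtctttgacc
B2m (chr2:122147437-122147736, plus strand): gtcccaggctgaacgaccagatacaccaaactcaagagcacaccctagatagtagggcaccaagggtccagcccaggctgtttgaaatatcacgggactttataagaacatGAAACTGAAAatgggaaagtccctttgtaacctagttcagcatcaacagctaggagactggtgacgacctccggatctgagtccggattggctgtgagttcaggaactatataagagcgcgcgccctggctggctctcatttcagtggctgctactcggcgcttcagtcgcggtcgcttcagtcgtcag
Tmem44 (chr16:30550529-30550828, minus strand): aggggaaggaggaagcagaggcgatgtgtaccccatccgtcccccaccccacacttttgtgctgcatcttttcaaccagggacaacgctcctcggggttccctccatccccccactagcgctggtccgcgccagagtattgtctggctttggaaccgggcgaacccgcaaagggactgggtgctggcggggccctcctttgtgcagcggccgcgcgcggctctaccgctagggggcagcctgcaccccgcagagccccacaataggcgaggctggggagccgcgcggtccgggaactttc
Isg15 (chr4:156200769-156201068, minus strand): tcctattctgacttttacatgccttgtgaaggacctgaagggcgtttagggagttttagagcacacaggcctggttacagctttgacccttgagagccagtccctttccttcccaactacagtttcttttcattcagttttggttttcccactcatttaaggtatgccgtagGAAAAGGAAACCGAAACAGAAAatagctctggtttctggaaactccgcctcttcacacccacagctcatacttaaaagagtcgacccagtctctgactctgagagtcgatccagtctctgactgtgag
Ifit3 (chr19:34583279-34583578, plus strand): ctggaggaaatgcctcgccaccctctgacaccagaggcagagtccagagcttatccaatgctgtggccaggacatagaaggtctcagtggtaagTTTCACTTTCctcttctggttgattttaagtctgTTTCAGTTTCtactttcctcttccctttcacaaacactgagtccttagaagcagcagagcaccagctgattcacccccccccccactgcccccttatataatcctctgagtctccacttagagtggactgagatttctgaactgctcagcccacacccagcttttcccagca
Ifitm3 (chr7:141010695-141010994, minus strand): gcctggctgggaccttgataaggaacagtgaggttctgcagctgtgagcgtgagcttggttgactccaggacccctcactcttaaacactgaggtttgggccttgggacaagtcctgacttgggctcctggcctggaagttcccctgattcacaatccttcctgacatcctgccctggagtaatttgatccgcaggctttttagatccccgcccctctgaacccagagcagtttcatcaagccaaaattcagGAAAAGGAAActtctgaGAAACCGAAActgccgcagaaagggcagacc

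The core was searched as GAAANNGAAA and as its reverse, TTTCNNTTTC, and overlapping matches were all counted. Isg15 had 3 overlapping matches, Ifit3 and Ifitm3 had 2 each and B2m had 1, whereas these letters are not in the windows shown for Ccl12 and Tmem44. The Ifitm3 matches lie after the start of the gene, and those of Isg15, Ifit3 and B2m lie before it. Of the 20 genes named for the smallest interaction p under the rule stated with the methods, 19 had a promoter in the table and 10 of them held the core (52.6%). Over all 32851 promoters of the table the share was 3.44%, and counted by gene it was 3.99% of 27025. In the interferon response list 19 of 37 genes with a promoter held it (51.4%), in the MHC class I presentation list 4 of 16, and in the homeostatic microglia list 0 of 18. A match is a description of the sequence and does not show a used site.

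By edgeR's quasi-likelihood test the LPS response differed between MIA and control offspring for 3 genes. The chemokine gene Ccl12 and the MHC class I light chain gene B2m were lower and Tmem44, which encodes a transmembrane protein, was higher. These are 3 of 17139 genes at a Benjamini-Hochberg adjusted p under 0.05 (0.0175% called), 1 higher (0.00583%) and 2 lower (0.0117%). At an unadjusted p under 0.05 there were 1597 genes (9.32%), 617 higher (3.6%) and 980 lower (5.72%). The median over all genes tested was -0.03 (log2). The calls rest on few MIA striatum LPS libraries: without replicate 1 of that group none of the 3 was called (edgeR adjusted p between 0.112 and 0.119). With the library marked as excluded, replicate 3 of the same group, added back, none was called either (edgeR adjusted p 0.135 to 0.2645). Same-numbered cortex and striatum libraries were also set as blocks, a pairing the labels do not state. Limma-voom then gave an adjusted p of 0.0423 for Ccl12 and for B2m and 0.229 for Tmem44. Without control striatum LPS replicate 2, edgeR called 3 genes higher and 24 lower. The count also depended on the tool and the filter. DESeq2 called 34 genes higher and 118 lower (0.252% and 0.875% of the 13479 genes it gave an adjusted p), limma-voom called 1 higher and 2 lower, and edgeR without the filter on low counts called 3 higher and 51 lower. Below, called means by edgeR with all 23 libraries unless another tool or set of libraries is named.

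Ccl12 (ENSMUSG00000035352.3) encodes a CC chemokine that attracts monocytes. In cortex it stood at 346, 333 and 823 CPM in the MIA LPS libraries and at 56.2, 49.5 and 62.6 CPM in the MIA saline libraries, against 1407, 1413 and 1175 CPM in the control LPS libraries and 48.8, 48.8 and 43.0 CPM in the control saline libraries. In striatum it stood at 234 and 288 CPM in MIA LPS and 48.7, 52.5 and 59.6 CPM in MIA saline, against 1337, 712 and 1174 CPM in control LPS and 36.4, 38.3 and 47.0 CPM in control saline. Every MIA LPS library lay below every control LPS library of its region, with the third MIA cortex library closest to them, and the saline libraries of all groups lay close together. The interaction was -2.06 ± 0.28 (log2, SE; edgeR adjusted p = 0.0073). Ccl12 rose after LPS by 2.72 ± 0.21 in MIA and by 4.78 ± 0.22 in control offspring, so it rose in both.

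B2m (ENSMUSG00000060802.8) encodes beta-2 microglobulin, the invariant light chain of MHC class I molecules. In cortex it stood at 3262, 2754 and 3491 CPM in MIA LPS and at 2897, 2592 and 2581 CPM in MIA saline, against 4100, 4667 and 4824 CPM in control LPS and 2283, 2319 and 2203 CPM in control saline. In striatum it stood at 2211 and 2666 CPM in MIA LPS and at 3247, 3283 and 3078 CPM in MIA saline, against 3488, 3964 and 5103 CPM in control LPS and 1988, 2208 and 2589 CPM in control saline. The MIA LPS libraries lay below the control LPS libraries in both regions, and the MIA saline libraries lay above the control saline libraries in cortex and in striatum. The interaction was -1.02 ± 0.15 (edgeR adjusted p = 0.011). B2m rose by 0.94 ± 0.10 in control offspring, whereas in MIA offspring the LPS effect was -0.08 ± 0.11 and did not pass the test.

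Tmem44 (ENSMUSG00000022537.18) was the 1 gene called higher. In cortex it stood at 28.5, 31.0 and 24.5 CPM in MIA LPS and at 26.5, 38.7 and 31.6 CPM in MIA saline, against 20.4, 16.7 and 14.7 CPM in control LPS and 32.5, 37.7 and 30.7 CPM in control saline. In striatum it stood at 22.1 and 20.8 CPM in MIA LPS and at 21.2, 20.8 and 22.99 CPM in MIA saline, against 9.02, 9.11 and 10.2 CPM in control LPS and 27.1, 28.7 and 22.4 CPM in control saline. The control LPS libraries were the lowest of their region, and the MIA LPS libraries overlapped the MIA saline libraries. The interaction was 1.10 ± 0.17 (edgeR adjusted p = 0.018). Tmem44 fell by 1.21 on the log2 scale in control offspring (SE 0.12), and the LPS effect in MIA offspring, -0.11 ± 0.13, did not pass. Besides MIA striatum LPS replicate 1, its call was lost without MIA cortex LPS replicate 2, control cortex saline replicate 2, or control striatum saline replicate 1 or 2, at edgeR adjusted p of 0.0528 to 0.0592. It was also lost with same-numbered cortex and striatum libraries as blocks (limma-voom adjusted p = 0.229).

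**Figure D1:**
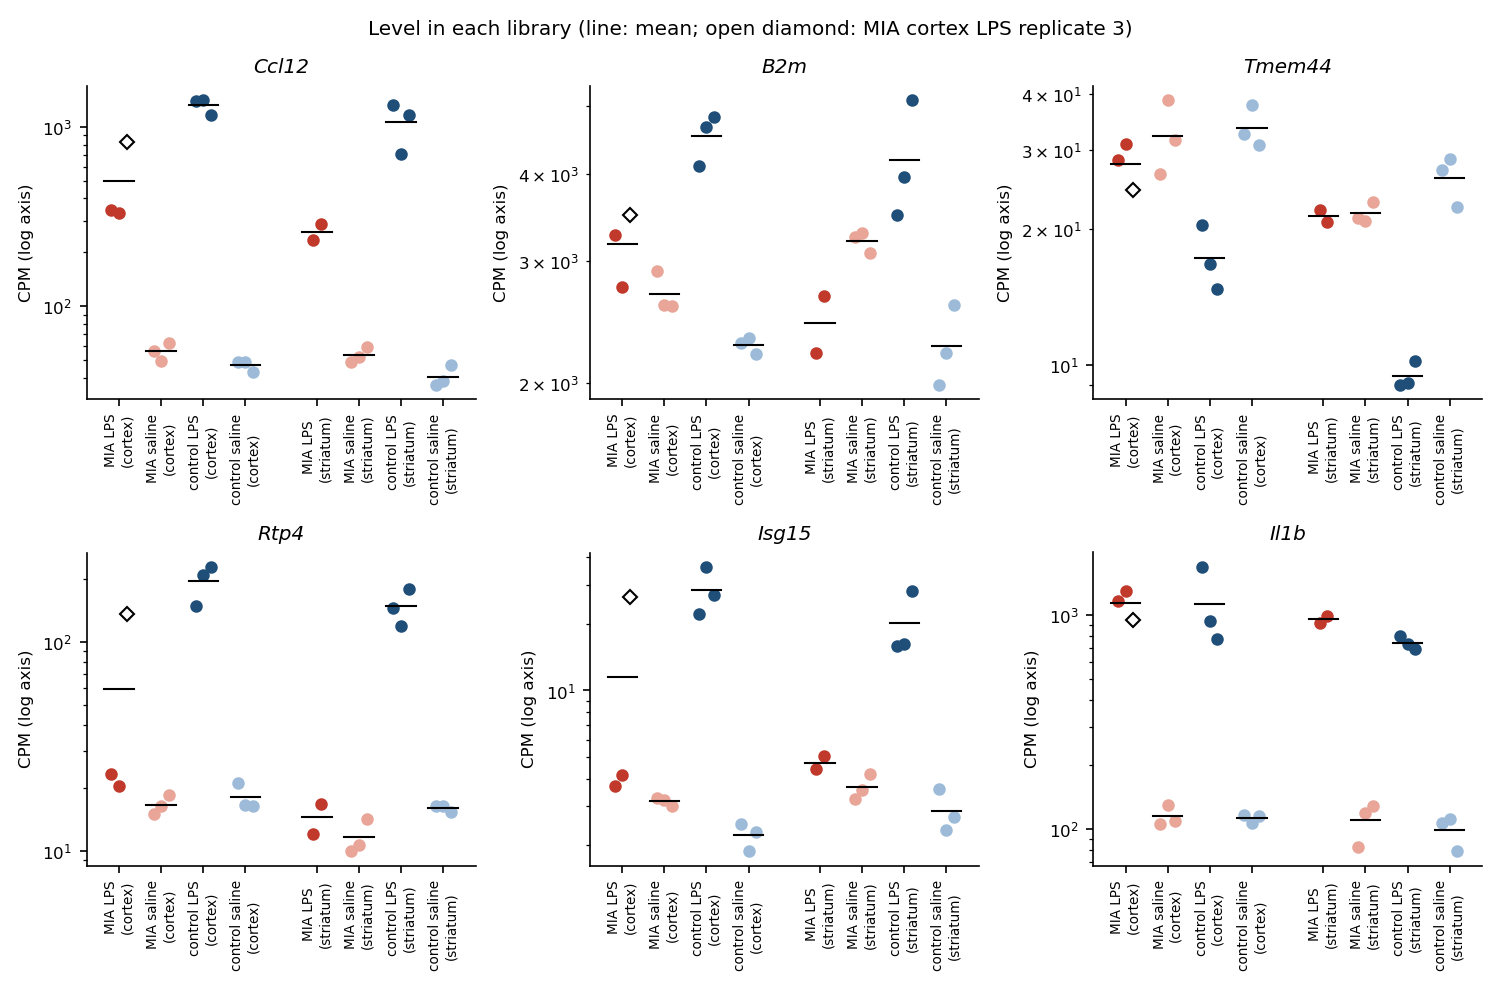
CPM (log axis) of 6 genes in each library, by region, prenatal group and treatment; lines are group means over 3 libraries (2 in MIA striatum LPS), and the open diamond is MIA cortex LPS replicate 3. In Rtp4 and Isg15 that library lies near the control LPS libraries and apart from the other 4 MIA LPS libraries, and in Il1b the LPS libraries of MIA and control overlap in cortex.

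Beside the 3 called genes stand 17 named for the next smallest p, none of which edgeR called at 0.05 (adjusted p 0.0512 to 0.063). DESeq2 called all 20, as did edgeR without MIA cortex LPS replicate 3, 19 lower and 1 higher each. All 17 had a negative interaction in both regions; the naming rule requires the same sign in both. Raising the threshold to an adjusted p under 0.10, a choice made after seeing the data, gave 45 genes, 42 lower and 3 higher. Among the 20 genes, edgeR called the LPS effect higher in MIA offspring for 11 and lower for 3, and in control offspring higher for 17 and lower for 2. The comparison of MIA with control after LPS called 19 lower and 1 higher, and the same comparison in saline called none. These 4 comparisons share libraries with the interaction, so they show where its terms lie and are not separate evidence. Over all genes, LPS raised 2171 genes (12.7%) and lowered 1504 (8.78%) in MIA offspring, 21.4% in all. In control offspring it raised 3002 genes (17.5%) and lowered 2267 (13.2%), 30.7% in all. MIA striatum LPS had 2 libraries and control striatum LPS 3, so an equal effect can be called less often in MIA. The same limit holds below wherever genes called for LPS are counted in MIA and in control. MIA against control called 45 genes higher (0.263%) and 141 lower (0.823%) after LPS, 1.09% in all (19 genes without MIA striatum LPS replicate 1 and 271 without MIA cortex LPS replicate 3). In saline edgeR called 0 (0%), where 1123 genes had an unadjusted p under 0.05 (6.55%), DESeq2 called 30 and limma-voom called 0.

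Several of the 17 act in antigen presentation or in the handling of foreign nucleic acid. Psme2 (proteasome activator subunit), Psmb9 (catalytic subunit of the immunoproteasome) and H2-T23 (a non-classical class I molecule) had interactions of -0.80 ± 0.15, -0.93 ± 0.18 and -1.31 ± 0.25. Trex1, an exonuclease that degrades cytosolic DNA, stood at 141, 137 and 240.2 CPM in MIA cortex LPS and 127 and 114 CPM in MIA striatum LPS, against 320.1, 349 and 401 CPM in control cortex LPS and 286, 267 and 368 CPM in control striatum LPS. The Trex1 libraries of MIA and control did not overlap after LPS, and its interaction was -1.04 ± 0.19. Ifi207, a member of a family that binds cytosolic DNA, had -1.66 ± 0.31. Because reads of near-identical genes were shared out among them by RSEM, the values of Ifi207, Phf11b, Trim30a, Trim30d, H2-T23 and Hba-a2 depend on that split.

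Others of the 17 are receptors, enzymes and genes of other functions. Nampt, the rate-limiting enzyme of NAD salvage, had an interaction of -0.80 ± 0.14, and it rose after LPS in MIA (0.34 ± 0.10) and in control offspring (1.14 ± 0.10). Slamf8, a receptor of the SLAM family on myeloid cells, stood at 23.5, 18.1 and 30.6 CPM in MIA cortex LPS and 20.7 and 22.1 CPM in MIA striatum LPS, against 81.3, 45.5 and 62.8 CPM in control cortex LPS and 62.9, 40.4 and 60.6 CPM in control striatum LPS. The MIA LPS values of Slamf8 were within the range of the saline libraries or close to it. Its interaction was -1.34 ± 0.24. Pilra, an inhibitory receptor of myeloid cells, had -0.93 ± 0.19, while LPS raised it by 2.83 ± 0.14 in MIA and by 3.76 ± 0.14 in control offspring. Cd9, a tetraspanin, fell after LPS in both groups, by 1.35 on the log2 scale in MIA and by 0.73 in control offspring. C1galt1c1, a chaperone of O-glycan synthesis, had an interaction of -0.80 ± 0.16 and Pttg1, which encodes securin, had -0.79 ± 0.15.

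**Figure D2:**
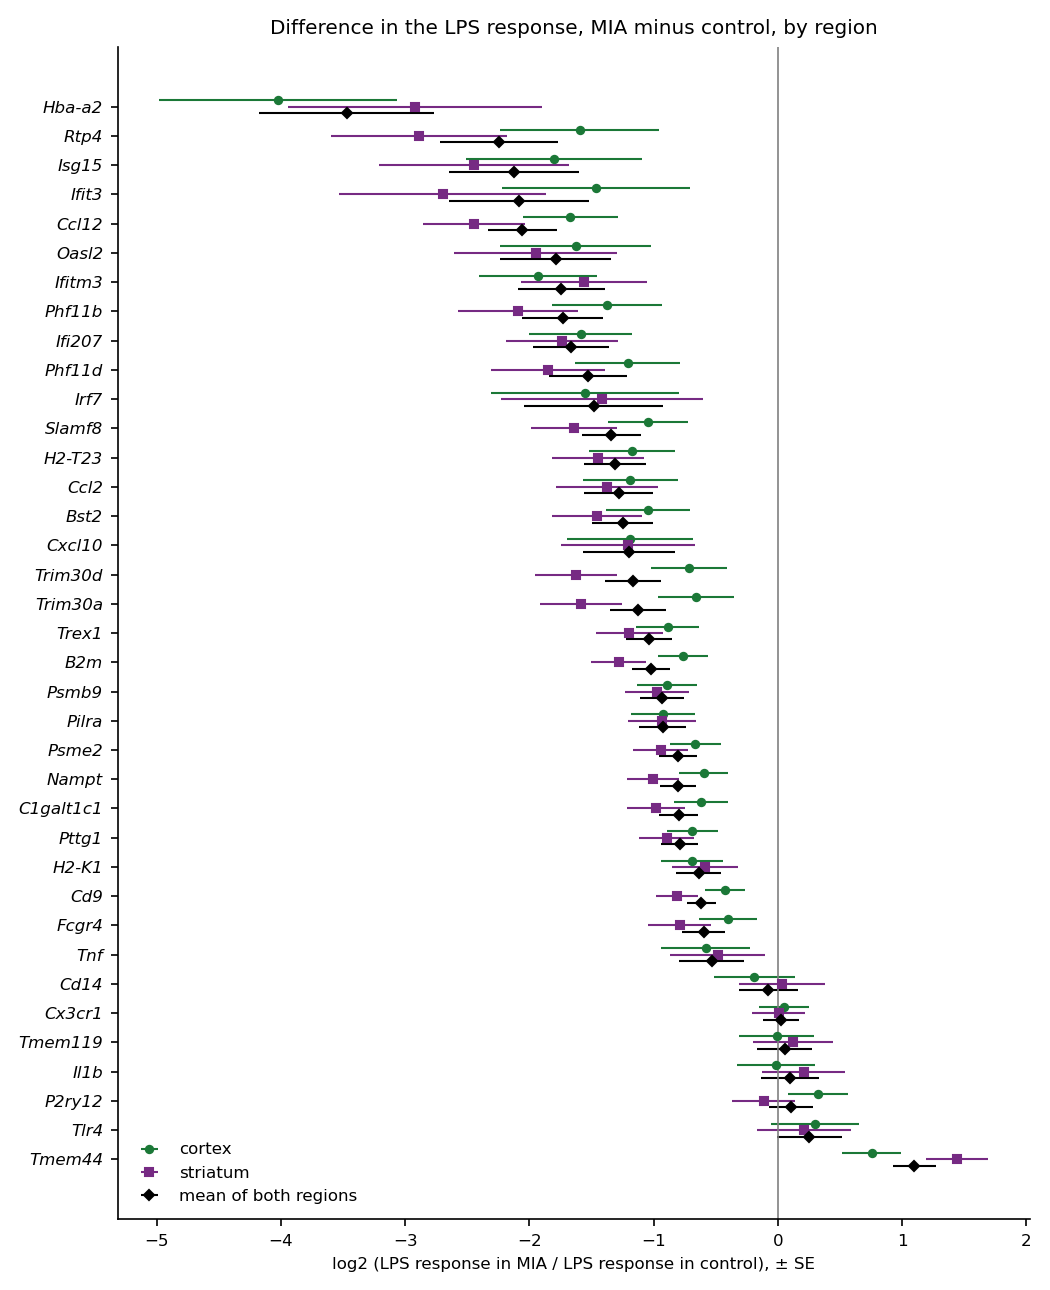
Interaction (log2, ± SE) in cortex, in striatum and as the mean of both regions for 37 genes: the 20 of smallest p under the naming rule and the reported genes among those named in every case, sorted by the mean. Of the genes shown, edgeR called Ccl12, B2m and Tmem44; Il1b, P2ry12, Cx3cr1, Tmem119, Cd14 and Tlr4 lie around 0.

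Interferon-induced genes had the largest median difference of the immune response lists. All 48 genes of the interferon response list, from DNA and RNA sensors to antiviral effectors, had an interaction below 0, with a median of -1.29 against -0.03 over all genes tested. With the 23 libraries edgeR and limma-voom called none and DESeq2 called 19 lower, and 41 of 48 had an unadjusted p under 0.05 on the lower side (5.72% of all genes did). Without MIA cortex LPS replicate 3 edgeR called 99 genes lower (0.582%) and 7 higher (0.0412%) over all genes, 32 of the lower ones in this list, and 46 of the 48 had an unadjusted p under 0.05 on the lower side (6.46% of all genes), with a list median of -1.66. All of them (0.623% in all) had the same sign with all 23 libraries, 104 had an unadjusted p under 0.05 there, and the 3 genes called with all 23 libraries were among them. The list was written with earlier results of these data known, and its genes share regulators, so its count is a description. MIA cortex LPS replicate 3 was set apart partly by the score of this same list, so the counts without it are a description too.

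The medians by role are given as a description, with overlapping ranges and no test between roles. The 19 restriction factors, which block steps of virus growth, had a median of -1.56 and the 4 genes of the ISG15 system, a ubiquitin-like tag and its enzymes, a median of -1.38. The 5 nucleic acid sensors had a median of -1.01, the 4 transcription factors -0.99 and the 3 PARP and ubiquitin ligase genes -0.73. The smallest differences were those of Eif2ak2, the RNA-activated kinase PKR, at -0.45 and Uba7, the enzyme that activates ISG15, at -0.47.

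Isg15 stood at 3.72, 4.16 and 26.5 CPM in MIA cortex LPS and at 3.28, 3.20 and 3.00 CPM in MIA cortex saline, against 22.2, 36.2 and 26.9 CPM in control cortex LPS and 2.51, 1.88 and 2.29 CPM in control cortex saline. In striatum it stood at 4.40 and 5.06 CPM in MIA LPS and 3.23, 3.55 and 4.19 CPM in MIA saline, against 15.9, 16.2 and 28.3 CPM in control LPS and 3.58, 2.34 and 2.68 CPM in control saline. Of the 5 MIA LPS libraries, 4 lay close to their saline libraries, and MIA cortex LPS replicate 3 lay among the control LPS libraries. The interaction of Isg15 was -2.12 ± 0.52 (edgeR adjusted p = 0.147), and without that library it was -2.90 (adjusted p = 6.9e-06). Adding back the excluded MIA striatum LPS library instead gave -1.76 (edgeR adjusted p = 0.678). The Isg15 promoter, shown above, has 3 overlapping copies of the response element core.

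Rtp4, an interferon-induced chaperone of G protein-coupled receptors, stood at 23.3, 20.5 and 135 CPM in MIA cortex LPS and 12.1 and 16.8 CPM in MIA striatum LPS, against 149, 209 and 229 CPM in control cortex LPS and 145, 119 and 179.6 CPM in control striatum LPS. Again 1 of the 5 MIA LPS libraries was near the control LPS range. The interaction was -2.24 ± 0.48 (edgeR adjusted p = 0.0702), and -2.97 without that library (adjusted p = 3.8e-07). Adding back the excluded library instead gave -1.26 (edgeR adjusted p = 0.813). Ifit3, which binds foreign RNA complexes, stood at 16.6, 10.9 and 114 CPM in MIA cortex LPS and 11.1 and 13.3 CPM in MIA striatum LPS, against 132, 115 and 150.2 CPM in control cortex LPS and 124, 58.4 and 91.7 CPM in control striatum LPS. Its interaction was -2.08 ± 0.56 (edgeR adjusted p = 0.208), and -2.98 without MIA cortex LPS replicate 3 (adjusted p = 4.8e-06). For Ifit3 the fit with the excluded library added back gave -1.28 (edgeR adjusted p = 0.813). The LPS effect on Ifit3 was 0.67 ± 0.40 in MIA offspring, which did not pass, and 2.75 ± 0.40 in control offspring, which did.

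Ifitm3, which blocks virus entry, had an interaction of -1.75 ± 0.35, Bst2, a tether of budding virus, of -1.25 ± 0.25, and Phf11b, an interferon-induced zinc finger gene, of -1.73 ± 0.33. Oasl2, of the oligoadenylate synthetase family, had -1.79 ± 0.45 and Phf11d had -1.53 ± 0.31. Among the transcription factors, Irf7, which amplifies interferon production, had -1.48 ± 0.56, Irf9 had -0.76 ± 0.17 and Stat2 had -0.66 ± 0.39. With all 23 libraries edgeR called none of these 8 genes, whereas DESeq2 called Ifitm3, Bst2, Phf11b, Oasl2 and Phf11d among them (adjusted p 0.000787 to 0.0164). Without MIA cortex LPS replicate 3, Stat2 (adjusted p = 0.298) was the 1 of the 8 that edgeR did not call.

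**Figure D3:**
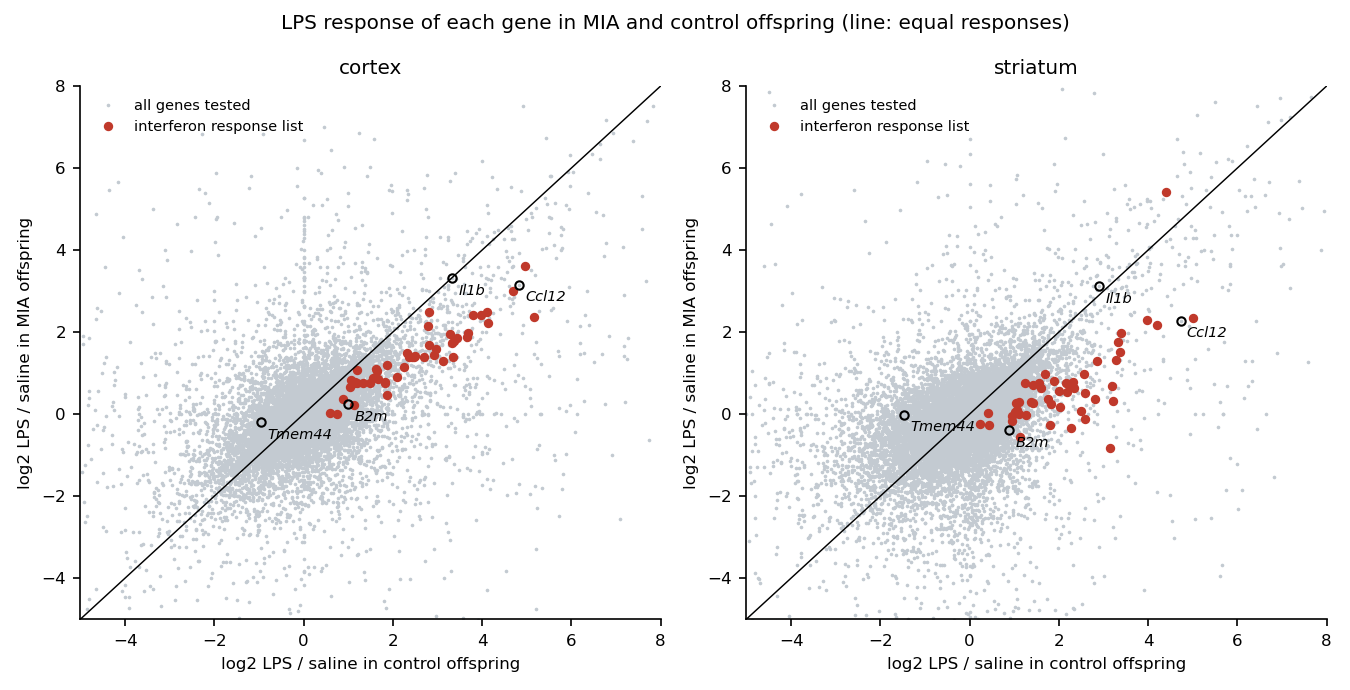
LPS effect (log2 LPS over saline) of each gene in MIA offspring (vertical axis) against control offspring (horizontal axis), in cortex and striatum; the line marks equal effects and red points are the 48 interferon response genes. The interaction in cortex is below 0 for all 48 and in striatum for 47 of 48; 378 of 17139 genes, with an effect below -5 or above 8 in at least 1 group, lie outside the axes.

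The terms behind the list shift lay in the LPS libraries. Of the 48 genes, LPS raised 26 in MIA offspring, with a list median of 0.83, and 47 in control offspring, with a list median of 2.23. In cortex it raised 26 in MIA (median 1.38; 7.05% of all genes rose) and 46 in control offspring (median 2.40; 10.9% of all genes). In striatum it raised 8 in MIA (median 0.44; 6.93% of all genes) and 42 in control offspring (median 2.02; 12.7% of all genes). With 2 MIA and 3 control libraries after LPS, the striatum counts are not like for like. In saline the MIA effect on the list had a median of -0.16 and no member was called, and after LPS it had a median of -1.45 with 29 members lower. The list score per library ran from 4.15 to 5.99 in MIA LPS and from 3.42 to 3.91 in MIA saline, against 5.56 to 6.53 in control LPS and 3.56 to 3.99 in control saline. Without MIA cortex LPS replicate 3 the highest MIA LPS score was 4.25, below the lowest control LPS score.

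MIA cortex LPS replicate 3 also differed in markers of other cells, and their part in its interferon level was not tested. The summed CPM of the 15 neuron markers was 1008 there, against 68.3 and 84.1 in the other 2 libraries of its group. The neuron gene Snap25 stood at 128 CPM, against 18.6 and 15.2, and Slc17a7, a marker of cortical excitatory neurons, at 11.7 CPM, against 0.242 and 0.355. Its endothelial and pericyte score was 6.06, against 4.91 and 4.96, and its border macrophage score was lower, at 5.10 against 6.12 and 6.44. Its astrocyte score was 5.58, against 3.96 and 4.30, and its oligodendrocyte score was 4.45, against 2.78 and 3.04. For Cd9 its value of 356 CPM lay between those of the other 2 libraries of its group, 413 and 342 CPM.

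**Figure D4:**
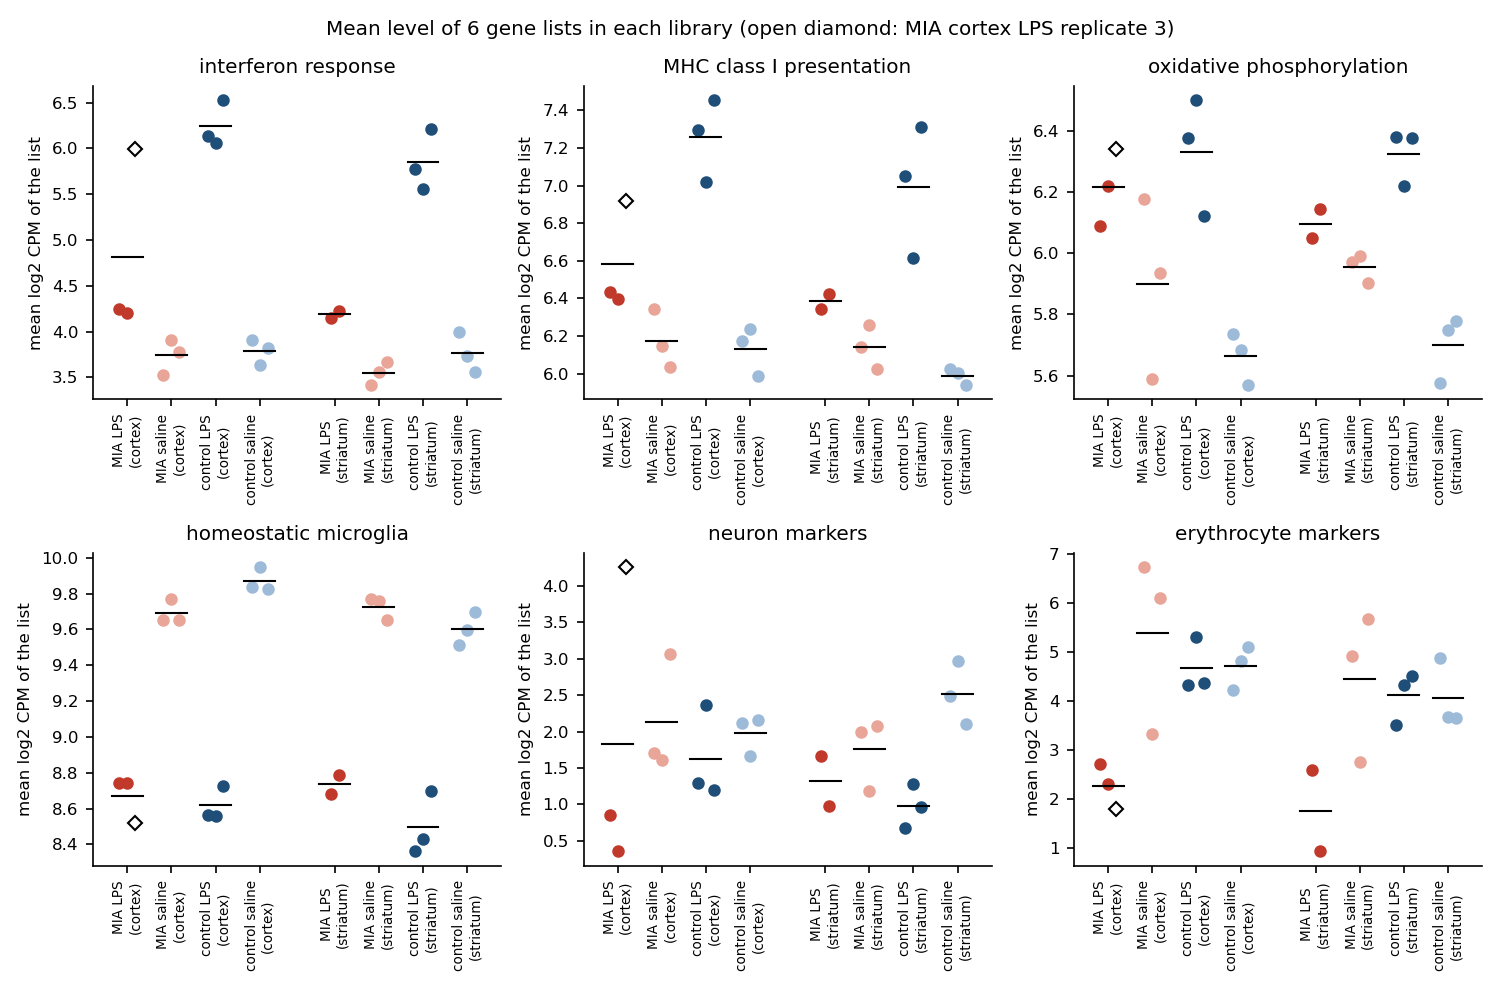
Mean log2 CPM of 6 gene lists in each library, by region, prenatal group and treatment (line, group mean; open diamond, MIA cortex LPS replicate 3). Of the 5 MIA LPS libraries, 4 have interferon response scores of 4.15 to 4.25, below all 6 control LPS libraries, and all 5 have erythrocyte marker scores below every control library.

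Genes induced mainly by interferon gamma, the guanylate-binding and immunity-related GTPases that attack pathogen vacuoles, had a list median of -0.80. Of 15, 5 had an unadjusted p under 0.05 on the lower side, edgeR called none and DESeq2 called 2 lower. Without MIA cortex LPS replicate 3, 5 were called lower, among them Igtp (-1.05 ± 0.26 with all libraries, -1.22 without, adjusted p = 0.0074). By branch, the 7 immunity-related genes had a median of -1.05 (range -2.125 to -0.361) and the 8 guanylate-binding genes -0.53 (range -2.001 to 0.07). The ranges overlapped, and the difference was not tested.

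The MHC class I presentation list, which holds class I chains, peptide loading genes and the immunoproteasome, had a median of -0.77. Of 19 genes 18 were below 0, B2m was called lower, and 14 had an unadjusted p under 0.05 on the lower side. The 8 class I molecules had a median of -0.95, the 5 immunoproteasome genes -0.71 and the 6 peptide loading genes -0.50. Tap1, a subunit of the peptide transporter, had -0.95 ± 0.29, and H2-K1, a classical class I heavy chain, had -0.64 ± 0.18. LPS raised H2-K1 in both groups, by 0.38 ± 0.13 in MIA and by 1.02 ± 0.13 in control offspring. Erap1, which trims peptides, was the 1 gene above 0, at 0.06. DESeq2 called 5 of the 19 lower. Without MIA cortex LPS replicate 3 edgeR called 7 lower, among them Tap1 (-1.18, adjusted p = 0.0322). By comparison the 12 MHC class II genes, which present exogenous peptides, had a median of -0.24 with none at an unadjusted p under 0.05.

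Chemokine genes had a median of -0.86, with 14 of 16 below 0 and 9 at an unadjusted p under 0.05 on the lower side, Ccl12 being the 1 called. Ccl2, which attracts monocytes through the receptor CCR2, stood at 148, 159.6 and 224 CPM in MIA cortex LPS and 98.6 and 156 CPM in MIA striatum LPS, against 365, 346 and 394 CPM in control cortex LPS and 333, 326 and 352 CPM in control striatum LPS. These groups did not overlap in either region. The interaction of Ccl2 was -1.28 ± 0.28 (edgeR adjusted p = 0.0823), and without MIA cortex LPS replicate 3 it was called (-1.39, adjusted p = 0.0231). Cxcl10, an interferon-induced chemokine for T cells, stood at 39.0, 37.1 and 110.1 CPM in MIA cortex LPS and 48.1 and 39.1 CPM in MIA striatum LPS, against 254, 112 and 98.7 CPM in control cortex LPS and 116, 102 and 126 CPM in control striatum LPS. In cortex the groups overlapped through 1 MIA library, and the interaction was -1.20 ± 0.37 (edgeR adjusted p = 0.278), and -1.55 without MIA cortex LPS replicate 3 (adjusted p = 0.011). When the excluded library was added back, Ccl2 was at -0.94 and Cxcl10 at -0.77 (edgeR adjusted p = 0.735 and 0.838). Cxcl16, a transmembrane chemokine, had -0.94 ± 0.22 and Ccl4, a chemokine of macrophages, had -0.78 ± 0.23. Cxcl1, which attracts neutrophils, was too variable to judge, at 0.00 ± 1.06.

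Cytokine genes differed less. The list median was -0.33, with 3 of 20 at an unadjusted p under 0.05 on the lower side and none called, in a list of which LPS raised 11 genes in MIA and 13 in control offspring. Il1b stood at 1164, 1289 and 949 CPM in MIA cortex LPS and 921 and 987 CPM in MIA striatum LPS, against 1681, 933 and 770.2 CPM in control cortex LPS and 800.3, 734 and 691 CPM in control striatum LPS. The groups overlapped in cortex, and in striatum the MIA libraries were the higher ones. LPS raised Il1b by 3.21 ± 0.18 in MIA and by 3.12 ± 0.17 in control offspring, and the interaction was 0.10 ± 0.23 with a 95% interval of -0.39 to 0.59. Tnf had an interaction of -0.53 ± 0.26, with an interval of -1.09 to 0.03. Il6 had -0.16 ± 0.34. Among cytokine genes with larger differences, Il18bp, the secreted inhibitor of interleukin-18, had -1.48 ± 0.44, and without MIA cortex LPS replicate 3 it was called (adjusted p = 0.035).

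Genes that sense LPS and carry its signal were centred on 0. The 20 LPS sensing genes had a median of -0.03, with 1 on each side at an unadjusted p under 0.05. Cd14 stood at 2618, 2783 and 2062 CPM in MIA cortex LPS and 2446 and 3453 CPM in MIA striatum LPS, against 2893, 2061 and 3439 CPM in control cortex LPS and 4244, 1877 and 3007 CPM in control striatum LPS, so the groups overlapped. Its interaction was -0.08 ± 0.24 (95% interval -0.58 to 0.43). Tlr4 had 0.26 ± 0.26 (95% interval -0.30 to 0.81) and the adaptor Myd88 had 0.01 ± 0.13. The 24 NF-kB subunits, inhibitors and targets had a median of -0.11, and the 5 subunits themselves of 0.01. These intervals still allow moderate differences in either direction.

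Receptors and kinases of the interferon pathway itself were also near 0. The 16 genes had a median of 0.01, with the receptor genes Ifnar1 at 0.36 ± 0.27 and Ifnar2 at -0.03 ± 0.13. Socs1, a feedback inhibitor of JAK kinases that is itself interferon-induced, was at -1.35 ± 0.33 (edgeR adjusted p = 0.147), the 1 member with an unadjusted p under 0.05 on the lower side. The kinase gene Jak1, at 0.32 ± 0.14, was the 1 member on the higher side. Among 16 genes of nucleic acid sensing upstream of interferon, with a median of -0.19, Ifi207 and Ifi204 were the 2 at an unadjusted p under 0.05 on the lower side. Both are DNA-binding proteins that interferon also induces, and both were called without MIA cortex LPS replicate 3. The kinase Tbk1, which activates IRF3, had 0.33 ± 0.19.

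Genes of resting microglia fell after LPS in both groups. Of 29 homeostatic microglia genes LPS lowered 23 in MIA offspring (median of the LPS effect -0.63) and 26 in control offspring (median -0.75). The interaction had a median of 0.09 and no member was called. P2ry12, a purine receptor of resting microglia, stood at 1463, 1206 and 1005 CPM in MIA cortex LPS and 834 and 1014 CPM in MIA striatum LPS, against 968, 1006 and 1428 CPM in control cortex LPS and 1021, 975 and 1030 CPM in control striatum LPS. The groups overlapped in both regions, and the interaction was 0.10 ± 0.18 (95% interval -0.27 to 0.48). Cx3cr1, the fractalkine receptor, had 0.03 ± 0.14 (95% interval -0.28 to 0.34) and Tmem119 had 0.06 ± 0.22 (95% interval -0.41 to 0.53).

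Receptors and genes of activated states were mixed. Of 22 disease-associated microglia genes, whose list median was -0.32, 9 had an unadjusted p under 0.05 on the lower side. Clec7a, the beta-glucan receptor dectin-1, had -1.27 ± 0.27 and Cybb, a subunit of the NADPH oxidase, had -0.98 ± 0.23. Clec7a was called by edgeR without MIA cortex LPS replicate 3 (adjusted p = 0.037). Among the 5 Fc receptors, which bind antibody, 3 had an unadjusted p under 0.05 on the lower side. Fcgr4 stood at 315, 334 and 272 CPM in MIA cortex LPS and 312 and 329 CPM in MIA striatum LPS, against 427, 383 and 533 CPM in control cortex LPS and 321, 424 and 529 CPM in control striatum LPS. LPS raised Fcgr4 in both groups, by 4.09 ± 0.14 in MIA and by 4.68 ± 0.14 in control offspring, and the interaction was -0.60 ± 0.17 (edgeR adjusted p = 0.249). Fcgr1 had -0.69 ± 0.14 (edgeR adjusted p = 0.0652, and 0.00847 without MIA cortex LPS replicate 3) and the complement list, of 18 genes, had a median of -0.09.

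Genes of energy and amino acid metabolism formed a second group below 0. Of 41 oxidative phosphorylation genes, which encode the respiratory chain and ATP synthase, 39 were below 0 and 28 had an unadjusted p under 0.05 on the lower side, with a median of -0.44, none called by edgeR and 2 called lower by DESeq2. Complex I subunits had a median of -0.51, complex IV subunits -0.43, complex II and III genes -0.37 and ATP synthase subunits -0.36. Uqcr10, a small subunit of complex III, had -0.95 ± 0.26. LPS raised 11 of the 41 genes in MIA (median 0.19) and 37 in control offspring (median 0.63). The list score in striatum ran from 5.9 to 5.99 in MIA saline, against 5.57 to 5.78 in control saline. After LPS it ran from 6.05 to 6.14 in MIA striatum, against 6.22 to 6.38 in control striatum. The striatum terms thus lay in the saline libraries as well as in the LPS libraries. In cortex the MIA and control ranges overlapped in saline (5.59 to 6.18 and 5.57 to 5.74) and after LPS. Without MIA cortex LPS replicate 3, edgeR again called none of the 41 and 29 had an unadjusted p under 0.05 on the lower side. All 16 amino acid response genes, many of them targets of the stress factor ATF4, were below 0, with a median of -0.52. Asns, which makes asparagine, had -1.50 ± 0.35 (edgeR adjusted p = 0.114), and -1.71 without MIA cortex LPS replicate 3 (adjusted p = 0.0144). LPS raised 8 of the 16 in MIA and 14 in control offspring. Glycolysis, cholesterol synthesis and the unfolded protein response had medians of -0.13, 0.05 and 0.12.

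**Figure D5:**
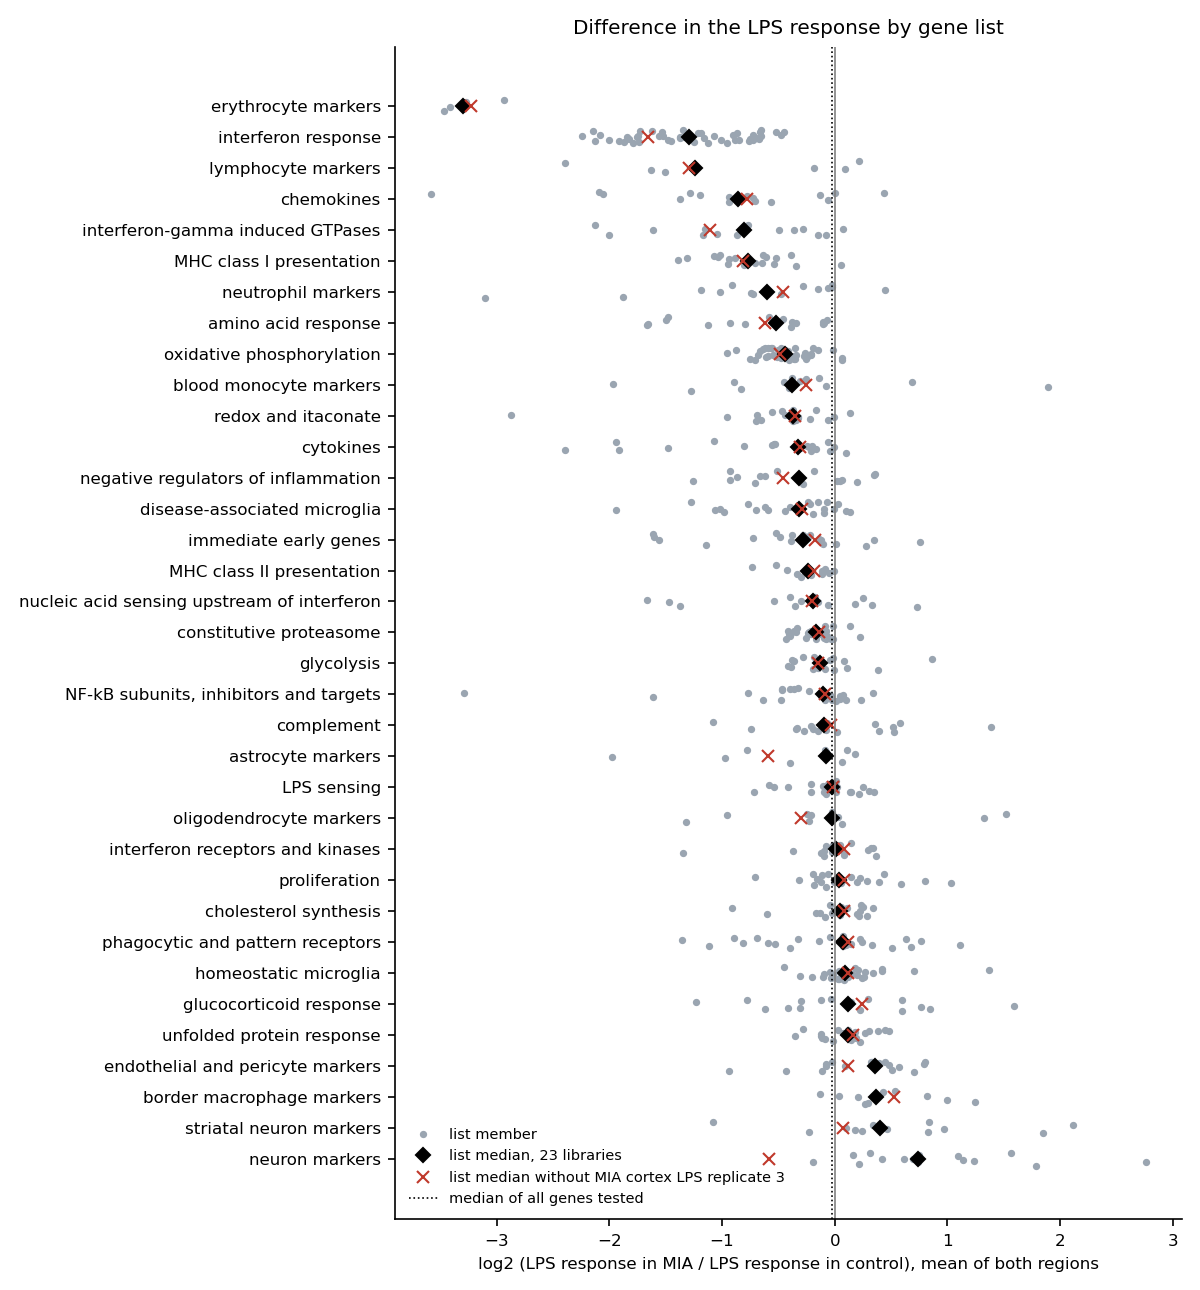
Interaction (log2, mean of both regions) of each gene in 35 lists (grey), with the list median over 23 libraries (diamond) and without MIA cortex LPS replicate 3 (cross). The interferon response list has a median of -1.29 and lies wholly below 0, the erythrocyte markers lie near -3.3, and the neuron marker median moves to -0.58, against 0.74 with all 23 libraries.

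Markers of other cells moved with the comparison, and their part in the results above was not tested. All 5 erythrocyte markers tested, of 7 in the list, had an unadjusted p under 0.05 on the lower side, with a median of -3.30. Hba-a2, an alpha globin gene, stood at 16.3, 8.92 and 10.9 CPM in MIA cortex LPS and at 331, 22.8 and 183 CPM in MIA cortex saline, against 65.8, 116 and 66.9 CPM in control cortex LPS and 52.1, 89.5 and 85.6 CPM in control cortex saline. In striatum it stood at 17.5 and 7.27 CPM in MIA LPS and 93.6, 16.3 and 124 CPM in MIA saline, against 62.0, 53.6 and 68.3 CPM in control LPS and 75.5, 40.4 and 37.0 CPM in control saline. The 5 MIA LPS libraries were the lowest for Hba-a2 except for 1 MIA saline library of striatum, which lay between its region's MIA LPS values, and the MIA saline libraries were the most spread. The summed CPM of the list ran from 20.8 to 55.6 in MIA LPS and from 51.6 to 992 in MIA saline, against 139 to 352 in control LPS and 112 to 276 in control saline.

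Other marker lists differed less or between regions. Neutrophil markers had a median of -0.60 over both regions, -1.65 in cortex and 0.40 in striatum. The MIA cortex saline library with the neutrophil score of 4.10 is among those behind the cortex value, and its part was not tested. Blood monocyte markers had a median of -0.38, with 3 of 13 at an unadjusted p under 0.05 on the lower side. Border macrophage markers had a median of 0.36, with 2 of 10 at that threshold on the higher side. In striatum their summed CPM ran from 899 to 1249 in MIA LPS and from 347 to 532 in MIA saline. In control striatum it ran from 377 to 578 after LPS and from 401 to 517 in saline. The MIA and control LPS ranges overlapped in cortex (570.5 to 1433 and 485.7 to 1119). Of 13 lymphocyte markers 6 failed the filter on low counts, and the 7 tested had a median of -1.24 (0.69 in cortex and -1.14 in striatum), with 1 at an unadjusted p under 0.05 on the lower side. The T cell gene Trac ran from 0 to 0.609 CPM, and Cd79b, a chain of the B cell receptor, from 11.2 to 36.7 CPM. Ms4a1 ran from 0 to 0.536 CPM and Ncr1 from 0 to 0.857 CPM. The lymphocyte medians thus rest in part on genes near 0 CPM, where log2 values are unstable. Gzma, a protease of killer lymphocytes, ran from 2.81 to 8.32 CPM in MIA LPS, against 3.61 to 22.3 CPM in control LPS. Neuron markers had a median of 0.74 with all libraries and -0.58 without MIA cortex LPS replicate 3. Endothelial and pericyte, oligodendrocyte and astrocyte markers had medians of 0.35, -0.02 and -0.08.

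The size of the whole LPS response was compared with genes chosen in the region that was not measured. For 947 genes that LPS raised at least 2-fold in control cortex, the mean log2 response in striatum was 1.55 in MIA and 1.75 in control offspring, a difference of -0.20, where the pooled SD between libraries was 0.084. For 989 genes raised in control striatum, the mean response in cortex was 1.35 in MIA and 1.82 in control offspring, a difference of -0.47 with a pooled SD of 0.044. The pooled SDs describe single libraries and are not standard errors of the differences. For these genes, chosen by the control response, the MIA response was thus 88.3% and 74.2% of the control response in log2 units. The first difference was -0.115 when scaled by library totals only, and the second was -0.281 for genes called at any fold. For the second set, the library scores were 4.68, 4.73 and 4.71 in MIA cortex LPS and 3.41, 3.38 and 3.29 in MIA cortex saline, against 5.14, 5.04 and 5.09 in control cortex LPS and 3.29, 3.28 and 3.24 in control cortex saline. MIA cortex LPS replicate 3 lay between the other 2 libraries of its group. Genes that LPS lowered gave less even values. The 640 chosen in cortex had a response in striatum of -1.21 in MIA and -1.47 in control offspring. The 864 chosen in striatum had a response in cortex of -1.04 in MIA and -1.08 in control offspring. The difference was 0.04, with a pooled SD of 0.162. This last value turned to -0.35 without MIA cortex LPS replicate 3, -0.056 without control cortex LPS replicate 3 and -0.084 without control striatum LPS replicate 1. If same-numbered cortex and striatum libraries came from 1 animal, which the labels do not say, choosing and measuring would not be fully separate. Of 22 libraries with a same-numbered library of the other region, 18 correlated best with their own number.

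Within each region, edgeR called no gene. The interaction in cortex called 0 genes with edgeR (0%), with 744 at an unadjusted p under 0.05 (4.34%), 1 called by DESeq2 and 0 by limma-voom. In striatum edgeR called 0 (0%), with 1323 at an unadjusted p under 0.05 (7.72%), 37 called by DESeq2 and 0 by limma-voom. Ccl12, B2m and Tmem44 had the smallest adjusted p there, 0.0679 each. The interferon response list had medians of -1.07 in cortex and -1.46 in striatum, and without MIA cortex LPS replicate 3 edgeR called 35 genes in cortex (0.206%) and 23 in striatum (0.135%). The difference between the regions, striatum minus cortex, called 0 genes with edgeR (0%), DESeq2 and limma-voom, with 540 at an unadjusted p under 0.05 (3.15%). Among the 6 genes of smallest p for that difference were Angptl4, Sdc2, Zfp65, Ahnak and Edn3, each with an adjusted p of 1. Angptl4, an inhibitor of lipoprotein lipase, had an interaction of -0.86 ± 0.51 in cortex and 2.22 ± 0.53 in striatum, at levels of 3.28 to 17.6 CPM.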

How the data were processed

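Bulk RNA-seq of CD11b-selected brain cells was used from 23 of 24 libraries, made per the labels' protocols with a modified Smart-Seq2 method after papain dissociation. The deposited table holds expected counts per gene, as RSEM estimates them from aligned reads. STAR, RSEM and DESeq2 are named in the submitters' processing notes, while versions and the genome build are not given in the sources used here. Of the deposited values 6.92% were not whole, so all were rounded before testing. The labels mark 1 MIA striatum LPS library as excluded, and it was left out. Reads that could come from several closely alike genes are split among them by RSEM, which leaves those genes uncertain.

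Genes were kept with edgeR's filterByExpr (minimum count 10, minimum total 15), scaled by TMM, and tested with edgeR 4.0.16's quasi-likelihood test in R 4.3.3 with 1 mean for each of 8 groups; p-values were adjusted by Benjamini-Hochberg within each comparison, with 0.05 as the threshold. CPM are counts scaled to a common total with TMM factors, and list scores are means of log2 CPM with a prior count of 2. Each edgeR SE is the absolute log2 value divided by the square root of the test's F statistic, so it is approximate. Intervals use this SE and a t quantile with 15 degrees of freedom, and they are not part of the test itself. Library totals of 19453295 to 29480499 counts limit the precision of genes with few counts. Alternatives used DESeq2 1.42.0, limma 3.58.1 (voom), other scalings and filters, other sets of libraries and replicate blocks. The method was run on simulated data with independent libraries and equal group means except in the changed genes. The simulation held no outlying library and no pairing of regions, so it cannot show how the calls depend on these. Ensembl identifiers were matched to symbols for 55141 of 55487 genes, and promoter sequences came from RefSeq (GRCm38.p6).

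The comparison and the gene lists were chosen with earlier results of these data known. Named genes were, first, those called that reached 10 CPM on average in some group and had the same sign in both regions and no predicted-gene name (up to 14 in each direction), up to 5 called members of each list, a set named in every case, genes of the smallest p up to 20, and the 6 of smallest p for the region difference. Cxcl16, Ccl4, Cxcl1 and other list members outside this rule were chosen after their values were seen. Of the genes the rule names, 2 are not reported here.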

Additional observations from a re-analysis of the deposited data

Results flagged for a closer look

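The library that the labels mark as excluded, MIA striatum LPS replicate 3, is outside the comparisons above. It was scored on the same lists, on a common scaling of all 24 libraries. Its scores, as mean log2 CPM, were above those of all other 23 libraries for 5 lists. The oxidative phosphorylation score was 6.87, against at most 6.51 in the others, and the constitutive proteasome score was 7.41, against at most 7.23. Striatal neuron markers scored 3.60 (at most 3.15 in the others), oligodendrocyte markers 5.71 (at most 5.52) and astrocyte markers 6.28 (at most 5.69). It was below all other 23 libraries for 7 lists, among them homeostatic microglia at 8.18 (at least 8.33 in the others), border macrophage markers at 4.29 (at least 4.54) and LPS sensing at 5.38 (at least 5.47). Mitochondrial genes took 6.16% of its counts, against at most 4.37% in the others. Its interferon response score was 5.00, against 4.15 and 4.21 in the other 2 MIA striatum LPS libraries.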

How the results depend on the processing

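Of 1512 values (42 named genes under 36 alternative settings), 1493 kept their direction, and the 19 that did not belong to Il1b, P2ry12, Cx3cr1, Tmem119, Cd14 and Sdc2, none of them called. The number of called genes moved with the setting, and the cause was not tested. DESeq2 called 34 higher and 118 lower, 1 in cortex, 37 in striatum, 537 for MIA after LPS, 30 for MIA in saline and 19 interferon genes. Without the filter on low counts these were 3 and 51, 2, 1, 8 for MIA in saline and 16, and a stricter filter gave 12 lower. Adding back the excluded library gave 0 higher and 0 lower, 46 for MIA after LPS and -0.086 for Cx3cr1. Leaving out MIA cortex LPS replicate 3 and MIA cortex saline replicate 1 together gave 5 and 82, 34 in cortex, 29 in striatum, 299 for MIA after LPS, 33 interferon genes and -0.017 for Cx3cr1. An additive region term gave 2 and 14, with 1 interferon gene and Sdc2 at 0.013. A threshold of 0.10 gave 3 and 42.

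The replicate number as a block gave 3 higher and 33 lower, with 8 interferon genes. Same-numbered cortex and striatum libraries correlated at -0.20 to 0.31 over 11 pairs (median 0.18, against -0.12 for different numbers), 8 of them over 0.1, and 18 of 22 libraries correlated best with their own number, a hint of pairing. The labels state no pairing and not every pair was over 0.1, so the numbers were not used as pairs. A replicate block by pair of regions, fitted with limma-voom, gave 0 higher (Tmem44 adjusted p = 0.229) and 94 for MIA after LPS. Ccl12 and B2m stayed called in that fit (limma-voom adjusted p = 0.0423 each). Summing the regions of a pair gave 29 lower, 2402 for LPS in MIA, 89 for MIA after LPS, 15 interferon genes and Sdc2 at 0.135.

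Leaving out 1 library at a time, called genes ran from 0 to 7 higher and 0 to 99 lower, from 0 to 35 in cortex, 0 to 23 in striatum, 19 to 271 for MIA after LPS and 0 to 32 in the interferon list. The highest of each was without MIA cortex LPS replicate 3, and 19 was without MIA striatum LPS replicate 1, where no gene was called for the interaction. Without control striatum LPS replicate 2 there were 3 higher and 24 lower. Leaving out control cortex LPS replicate 2, control striatum LPS replicate 1, MIA cortex saline replicate 2 or MIA striatum saline replicate 2 gave 4 lower each. The interaction ran from -0.043 to 0.187 for Tmem119, -0.214 to 0.081 for Cd14, -0.009 to 0.3 for Il1b, -0.04 to 0.117 for Cx3cr1, -0.007 to 0.204 for P2ry12 and -0.247 to 0.003 for Sdc2.

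The response size in the other region moved for genes lowered in control cortex to 0.359 with library totals, 0.093 with the excluded library and 0.202 with genes at any fold, and ran from 0.205 to 0.338 leaving out 1 library. For genes raised in control cortex it was -0.115 with library totals, and for genes raised in control striatum -0.281 at any fold. For genes lowered in control striatum it was -0.385 without the same pair of libraries and ran from -0.352 to 0.136 leaving out 1 library.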
